A study of Mus musculus with 6 samples.

Results

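Astrocytes and oligodendrocytes are the macroglia of the central nervous system, and 9 genes in common use as their markers were followed from germline stem cells to cells of a neural stem cell-like state. The genes were chosen by symbol as S100b, Aqp4, Aldh1l1, Slc1a2, Ndrg2, Cspg4, Mbp, Cnp and Gjc3, and all 9 were found among the 55401 genes of the deposited table. Sequencing of polyadenylated mouse RNA gave 3 libraries for each of 2 groups. SSCs are spermatogonial stem cells from the testis of 6-day-old males, grown over mitotically inactivated STO fibroblasts in 10% serum with 20 ng/mL each of GDNF and EGF and 10 ng/mL each of bFGF and LIF. The iNSCs, also male, are neural stem cell-like cells that had undergone transdifferentiation for 6 days. SSCs were first separated by differential plating and put on laminin, then had SSC medium with 1 µM retinoic acid for 24 h, and were then held in a serum-poor (1%) N2 and B27 medium with bFGF at 20 ng/mL and the TGF-beta receptor inhibitor SB431542 at 10 µM. The labels mention no sort before RNA extraction, and name neither a strain nor separate cultures or animals for the replicates. The spread behind each p-value is thus that of these libraries and may be technical.

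Astrocytes take up glutamate, carry water and ions across the glial end feet, and supply metabolites to neurons. Oligodendrocytes arise from precursors that bear the proteoglycan NG2 and wrap axons in myelin. Both lineages descend from neural stem cells, and in culture glial genes usually come on after the neural stem cell state is reached. Many of the genes are also active outside the brain: Aldh1l1 in liver and kidney, Aqp4 in the collecting duct of the kidney, and Cspg4 in pericytes.

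Total counts ran from 18058551 to 20156067 per library. The cell type tag of all 6 samples contradicts their titles, and groups follow the titles. All 12 germ cell genes listed were lower in the libraries titled iNSCs, at a median log2 difference of -6.37. Of all 17387 genes tested 25.7% rose and 27.6% fell, the shares to set beside this list and the neural stem cell list. Among 12 tested neural stem cell genes 5 rose and 5 fell. The intermediate filament gene Nes stood at 95.8 to 104 FPKM in iNSCs, and Prom1 went from 23 to 11758 counts (log2 9.16). Vim, Cdh2 and Sox9 rose as well. In iNSCs Hes5 and Nr2e1 had 0 counts, and Sox2 had 3 counts in all 3 libraries together. Each of Prom1, Hes5, Nr2e1 and Sox2 passed the expression filter through 1 group alone, so that a difference was bound to be seen. FPKM is the count scaled to exonic length and to the total of the library, so that it is a level per length. The media, the feeders and the change of state differ together between the groups and cannot be told apart. In bulk RNA, fewer cells of a type and less RNA per cell cannot be told apart either.

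Start site sequences are shown for the 5 tested members that have one, so that genes that rose, fell or were not called can be set side by side. RefSeq start sites on GRCm38.p6 were found for 7 of the 9 genes, with 3 starts for Ndrg2, and each window holds 300 bases. Capitals mark matches on either strand to GGGCGG (a GC box), to ACAAAG (a motif of SOX factors), to TATAAA and to the NF-kB motif. These stand in 35.7%, 18.7%, 13.6% and 4.51% of 32851 windows of the same length, and no marked matches overlap. Aldh1l1 (chr6:90550543-90550842, plus strand) and Slc1a2 (chr2:102706188-102706487, plus strand) rose, Cspg4 (chr9:56864854-56865153, plus strand) fell, and Cnp (chr11:100574689-100574988, plus strand) and Ndrg2 (chr14:51913955-51914254, minus strand) did not pass the size threshold.
Aldh1l1: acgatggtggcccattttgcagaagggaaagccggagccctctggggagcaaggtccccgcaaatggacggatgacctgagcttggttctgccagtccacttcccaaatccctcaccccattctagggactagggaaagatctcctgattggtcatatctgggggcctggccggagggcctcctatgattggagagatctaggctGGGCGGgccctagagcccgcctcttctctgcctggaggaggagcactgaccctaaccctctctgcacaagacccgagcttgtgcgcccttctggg
Slc1a2: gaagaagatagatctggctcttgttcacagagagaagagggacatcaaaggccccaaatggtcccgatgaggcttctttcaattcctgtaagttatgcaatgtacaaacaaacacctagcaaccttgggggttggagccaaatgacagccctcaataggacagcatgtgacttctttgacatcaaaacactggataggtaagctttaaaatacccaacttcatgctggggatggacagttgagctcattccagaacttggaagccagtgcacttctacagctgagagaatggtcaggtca
Cspg4: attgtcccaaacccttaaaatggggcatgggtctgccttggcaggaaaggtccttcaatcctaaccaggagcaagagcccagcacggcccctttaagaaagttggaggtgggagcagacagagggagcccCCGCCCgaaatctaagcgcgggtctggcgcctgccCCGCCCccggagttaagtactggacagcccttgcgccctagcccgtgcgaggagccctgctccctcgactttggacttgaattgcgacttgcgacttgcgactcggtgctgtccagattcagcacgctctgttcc
Cnp: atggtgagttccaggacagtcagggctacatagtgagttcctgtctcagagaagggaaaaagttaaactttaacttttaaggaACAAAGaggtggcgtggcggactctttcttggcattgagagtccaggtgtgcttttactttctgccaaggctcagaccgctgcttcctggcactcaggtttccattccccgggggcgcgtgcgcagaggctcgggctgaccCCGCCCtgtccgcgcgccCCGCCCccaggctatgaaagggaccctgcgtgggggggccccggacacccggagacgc
Ndrg2: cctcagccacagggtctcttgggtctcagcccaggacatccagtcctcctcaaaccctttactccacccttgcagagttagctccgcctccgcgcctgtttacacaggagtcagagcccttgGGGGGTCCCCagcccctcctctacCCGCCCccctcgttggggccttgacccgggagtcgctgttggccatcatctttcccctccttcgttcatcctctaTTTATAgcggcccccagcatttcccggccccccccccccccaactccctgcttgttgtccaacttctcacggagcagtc

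The windows differ in CG dinucleotides, with 17 in Cnp and in Cspg4, 11 in this Ndrg2 window, 9 in Aldh1l1 and 1 in Slc1a2, against a median of 7 over all windows. Matches to the NF-kB motif stood in 2 of the 3 Ndrg2 windows and in none of the other windows of the 7 genes. The windows of the risers Aldh1l1 and Slc1a2 share none of the marked motifs, and the Slc1a2 window holds none of them. Both windows are at starts inside the gene, whose first annotated base is 90486427 for Aldh1l1 and 102658659 for Slc1a2. The printed windows of Cspg4, Cnp and Ndrg2 cover the outer start of the gene. The windows are thus not of 1 kind, and the outer starts of Aldh1l1 and Slc1a2 were not examined. The E-box CACGTG, in 7.15% of all windows, was in none of the 5 printed. A match is a stretch of letters and was not tested for binding.

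Of the 5 members from the astrocyte list, Aldh1l1, Slc1a2 and Aqp4 rose, Ndrg2 was not called and S100b was too low to be tested. Aldh1l1 encodes the cytosolic formyltetrahydrofolate dehydrogenase, widely used as a pan-astrocyte marker (ENSMUSG00000030088, chromosome 6, 90486427 to 90600203, plus strand). It stood at 1.51, 0.75 and 0.49 FPKM in SSCs replicates 1, 2 and 3 and at 5.83, 5.93 and 5.94 FPKM in iNSCs replicates 1, 2 and 3. The iNSC libraries were nearly equal and all above the SSC libraries, among which replicate 1 was high. Scaled counts were 7.77-fold higher in iNSCs (log2 2.96, SE 0.36, adjusted p = 2.3e-04, edgeR quasi-likelihood test).

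Slc1a2 encodes the main glutamate transporter of astrocytes (ENSMUSG00000005089, chromosome 2, 102658659 to 102790784, plus strand). Its levels were 0.11, 0.08 and 0.09 FPKM in the SSC libraries and 1.86, 2.27 and 2.10 FPKM in the iNSC libraries. All libraries of each group lay close together, and the groups were far apart. The rise was 26.4-fold (log2 4.72, SE 0.19, adjusted p = 2.5e-06), from 69 to 1595 counts in all.

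Aqp4, the water channel of astrocyte end feet (ENSMUSG00000024411, chromosome 18, 15389496 to 15410982, minus strand), had 0 counts in each SSC library. The iNSC libraries had 64, 18 and 15 counts, that is 0.55, 0.15 and 0.12 FPKM. Replicate 1 held most of the reads, and the level was low in all 3. Against the limit of 3 counts over the SSC group, the 97 summed iNSC counts were at least 37.1-fold higher. That bound covers counting error only and leans on replicate 1. The fitted log2 difference of Aqp4 was 8.14 (adjusted p = 0.00412, edgeR quasi-likelihood test), and 7.19 without iNSCs replicate 1. The gene passed the expression filter through the iNSC libraries alone, so that a difference was bound to be seen.

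S100b, a calcium-binding protein of astrocytes and Schwann cells (ENSMUSG00000033208, chromosome 10, 76253853 to 76261159, plus strand), was near the floor in both groups and below the expression filter. Its levels were 0.31, 0.07 and 0.32 FPKM in SSCs and 0.61, 0.66 and 0.27 FPKM in iNSCs. The groups overlapped, since iNSCs replicate 3 lay below SSCs replicates 1 and 3. Over 20 and 44 counts the ratio of scaled counts was 2.52, with a 95% Clopper-Pearson interval of 1.46 to 4.52 that covers counting error only. With no filter its log2 difference was 1.36 (adjusted p = 0.104).

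Ndrg2, an astrocyte-enriched protein of the N-myc downstream regulated family (ENSMUSG00000004558, chromosome 14, 51905271 to 51914158, minus strand), went the other way. It stood at 9.25, 7.65 and 12.16 FPKM in SSCs and at 5.51, 4.76 and 5.08 FPKM in iNSCs. Every iNSC library was below every SSC library, of which replicate 3 was the highest. The log2 difference of -0.67 (SE 0.20, adjusted p = 0.0183) passed the test but not the size threshold of 1, so the gene was not called. Without iNSCs replicate 1, 2 or 3 the adjusted p was 0.0507, 0.0819 or 0.0665.

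**Figure D1:**
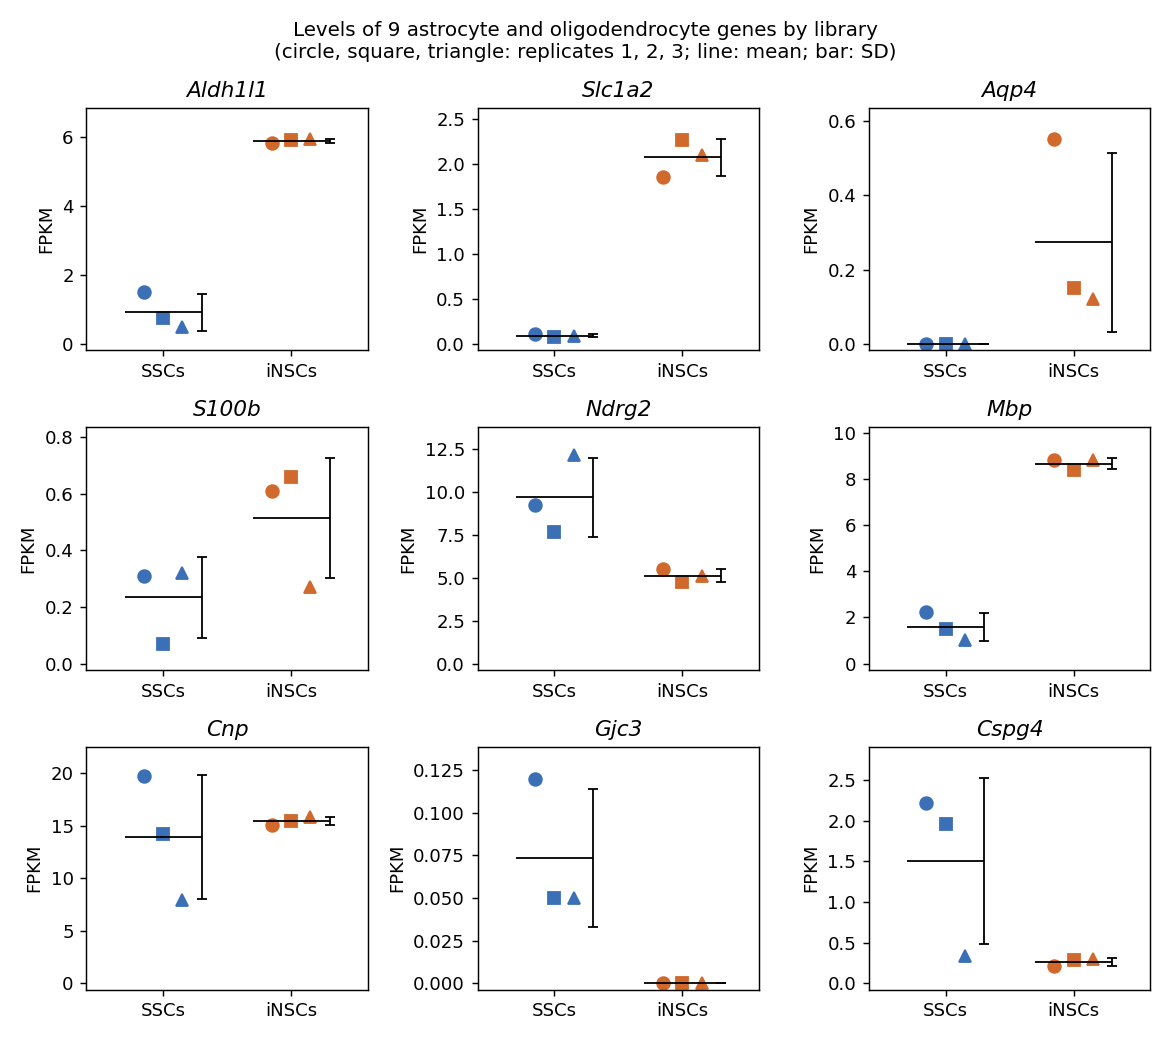
FPKM of the 9 genes in each library, with a panel and a linear scale for each gene. Circles, squares and triangles are replicates 1, 2 and 3, lines are means and bars are SDs (n = 3). Aldh1l1, Slc1a2, Mbp and Aqp4 lie higher in all iNSC libraries, Ndrg2, Cspg4 and Gjc3 lie lower, and S100b and Cnp overlap.

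Of the 4 members from the oligodendrocyte lineage, Mbp alone rose. It encodes myelin basic protein (ENSMUSG00000041607, chromosome 18, 82475146 to 82585637, plus strand), and the same locus also gives longer golli transcripts that are made in cells without myelin. Mbp stood at 2.24, 1.51 and 1.03 FPKM in SSCs and at 8.80, 8.37 and 8.81 FPKM in iNSCs. The iNSC libraries were within 1.05-fold of each other and all above the SSC libraries. The rise was 6.54-fold (log2 2.71, SE 0.24, adjusted p = 5.3e-05). The table counts the gene as a whole, with 16 transcripts in GENCODE M21, so the golli and myelin forms were not separated.

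Cnp encodes the cyclic nucleotide phosphodiesterase of non-compact myelin, which is also found at lower levels in other cells (ENSMUSG00000006782, chromosome 11, 100574904 to 100591729, plus strand). It had the highest level of the 9 genes in both groups. Its levels were 19.75, 14.23 and 7.94 FPKM in SSCs and 15.03, 15.47 and 15.80 FPKM in iNSCs. All iNSC libraries lay within the range of the SSC libraries, and no difference was called (log2 0.41, SE 0.27, adjusted p = 0.198). Cnp shares 154 exonic bases with Dnajc7 on the other strand, a gene with 11988 and 6766 counts in the groups, and whether counting used the strand is not given in the sources used here.

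Gjc3, a connexin of oligodendrocytes and Schwann cells (ENSMUSG00000056966, chromosome 5, 137953461 to 137963098, minus strand), was the scarcest of the 9 in iNSCs. It had 10, 4 and 4 counts in SSCs replicates 1, 2 and 3 and 0 in every iNSC library. That is at least 5.23-fold lower against 3 counts over the iNSC group. The gene was below the expression filter. Without the filter its adjusted p was 0.0141.

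Cspg4 encodes NG2, the proteoglycan of oligodendrocyte precursors and of pericytes (ENSMUSG00000032911, chromosome 9, 56865033 to 56899870, plus strand). It stood at 2.22, 1.96 and 0.33 FPKM in SSCs replicates 1, 2 and 3 and at 0.21, 0.29 and 0.30 FPKM in iNSCs. SSCs replicates 1 and 2 were high, and replicate 3 was barely above the iNSC libraries. Cspg4 fell by 2.20 on the log2 scale (SE 0.62, adjusted p = 0.0136, and between 7.99e-06 and 0.828 in the alternatives run). Without iNSCs replicate 1 the adjusted p was 0.0537, and with SSCs replicate 3 as the only SSC library the log2 difference was -0.08.

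Of the 9 genes 7 were tested, and 4 rose (Slc1a2, Aldh1l1, Mbp and Aqp4) and 1 fell (Cspg4). Among all 17387 genes tested 25.7% rose and 27.6% fell, so that a change in either direction was called for 53.3%. In 4 of the 7 tested members all iNSC libraries were above all SSC libraries and in 2 below, against 33% and 46.5% of all tested genes. With most genes different between the groups, the count of members called says little by itself.

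The order of levels changed between the groups. In SSCs it ran Cnp, Ndrg2, Mbp, Cspg4, Aldh1l1, S100b, Slc1a2, Gjc3 and Aqp4. The ranges of Cnp and Ndrg2 overlapped there, as did those of Mbp, Cspg4 and Aldh1l1 in that order, and those of S100b, Slc1a2 and Gjc3. In iNSCs it ran Cnp, Mbp, Aldh1l1, Ndrg2, Slc1a2, S100b, Aqp4, Cspg4 and Gjc3, and there the only ranges of neighbours to overlap were those of S100b with Aqp4 and of Aqp4 with Cspg4. Set among all tested genes, Cnp exceeded 74.5% of them in SSCs and 78.6% in iNSCs. Mbp moved from 30.8% to 66.3%, Aldh1l1 from 22.7% to 57.4%, Slc1a2 from 3.40% to 37.8%, and Ndrg2 from 66.4% to 54.2%. Aqp4 went from 0 to 14.7%. Mbp and Aldh1l1 thus came to lie above most tested genes, and Slc1a2 and Aqp4 did not.

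The SSC libraries differed among themselves in the same genes. Replicate 1 was the highest and replicate 3 the lowest for Cspg4, Cnp, Aldh1l1 and Mbp, with ratios of 6.73, 2.49, 3.08 and 2.17 between them. The iNSC libraries differed by ratios of 1.43, 1.05, 1.02 and 1.05 for these genes. Of the 12 fibroblast and feeder genes, 7 had the same order and 5 did not. Among the 7 were Col1a1, the main fibrillar collagen chain, which stood at 189, 168 and 23.0 FPKM in SSCs replicates 1, 2 and 3, and Pdgfrb, a receptor of fibroblasts and pericytes, at 6.78, 5.70 and 0.79 FPKM. Pdgfra, Dcn and Lum were highest in replicate 3, with the collagen-binding proteoglycan gene Dcn at 1.68, 0.23 and 2.91 FPKM. The 12 genes together summed to 646, 602 and 131 FPKM in these libraries and to 341 to 404 FPKM in iNSCs, and none was at 0 in either group. Col1a1 was the largest term in SSCs replicates 1 and 2. In iNSCs replicates 1, 2 and 3 the largest term was Fn1, at 215, 204 and 217 FPKM. The Sertoli cell gene Clu followed another order, at 280, 44.2 and 94.97 FPKM. Ndrg2 and Slc1a2 did not have the order of Col1a1, since replicate 2 was the lowest for both. The part of feeder or somatic RNA in these differences was not tested.

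**Figure D2:**
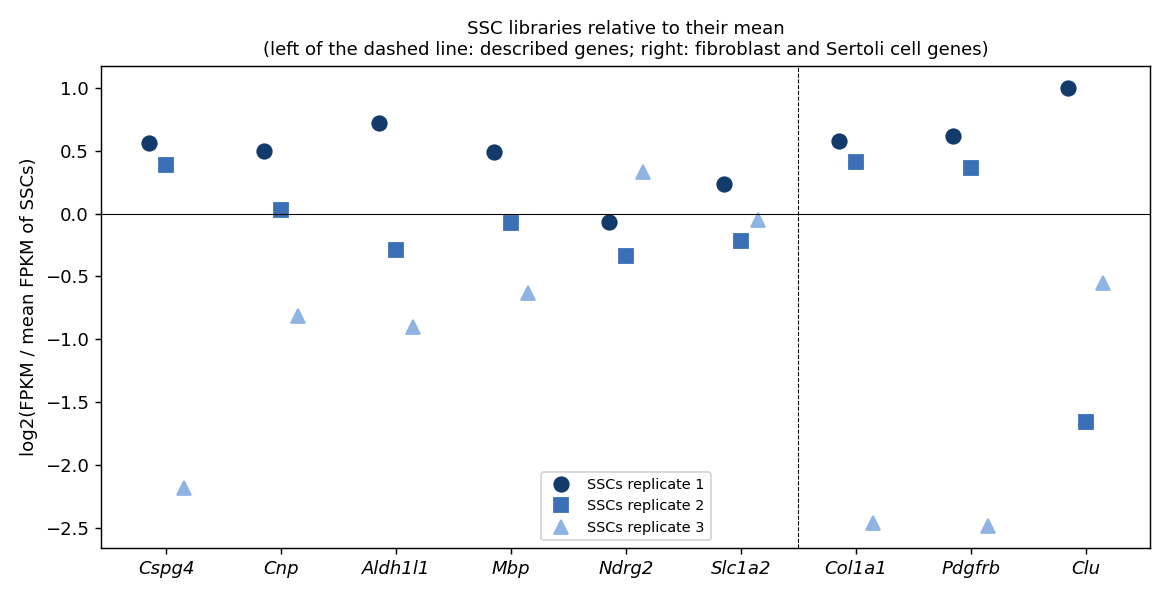
Level of 6 of the genes and of 3 marker genes in each SSC library, as log2 of FPKM over the mean of the 3 SSC libraries. Cspg4, Col1a1 and Pdgfrb share a low replicate 3, whereas Ndrg2 is highest there.

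With SSCs replicate 3 alone as the SSC group, whose spread is then taken from the iNSC libraries, the picture of the risers held: the log2 differences were 4.68 for Slc1a2, 3.82 for Aldh1l1 and 3.29 for Mbp. For Cnp the log2 difference was then 1.17, and for Ndrg2 it was -1.03. That library was singled out after its values were seen.

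**Figure D3:**
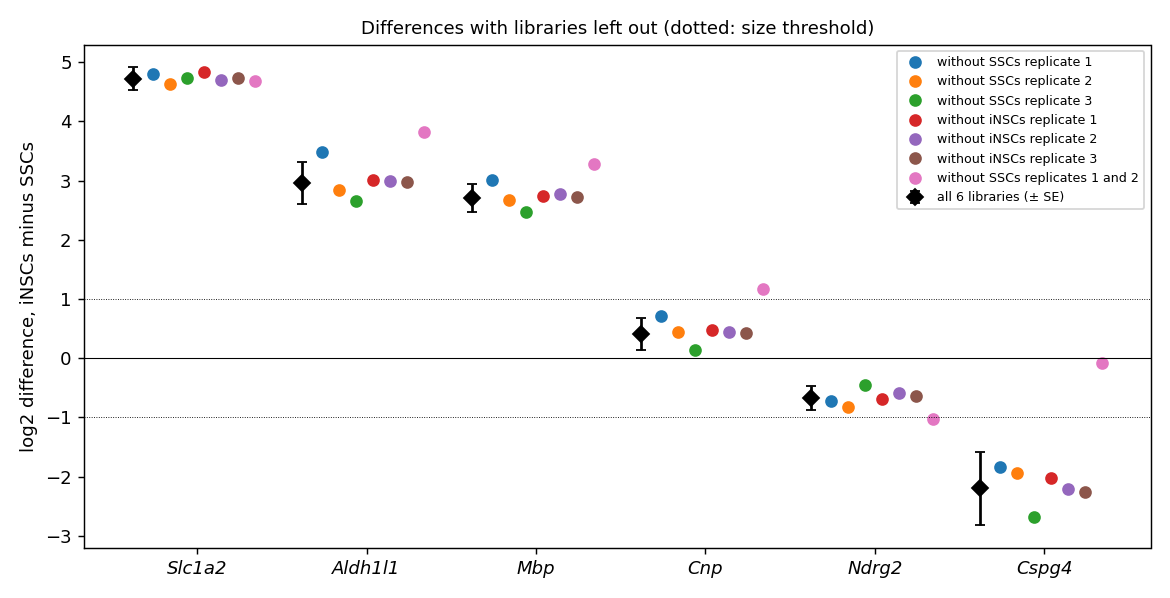
Log2 differences of 6 of the genes with all 6 libraries (diamonds, bars are SEs) and with libraries left out (circles). Slc1a2, Aldh1l1 and Mbp stay above the upper threshold of 1 throughout, and Cspg4 moves from -2.20 to -0.08 when SSCs replicate 3 stands alone.

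Genes with the most similar profile over the 6 libraries were Vamp8, a vesicle SNARE, for Aldh1l1, Mapk4, an atypical MAP kinase, for Slc1a2, C1galt1c1, a chaperone of O-glycan synthesis, for Mbp, and Tars, a threonyl-tRNA synthetase, for Ndrg2. Since the libraries form 2 groups, such likeness is common: 741 of 9957 genes searched had a Pearson correlation of log2 CPM above 0.99 with Aldh1l1, 792 with Slc1a2 and 946 with Mbp. Profiles like those of Cnp and Ndrg2 were rarer, with 6 and 5 such genes. For Cnp the nearest was Fhl2, a LIM protein of muscle and fibroblasts, at 57.4, 32.6 and 11.2 FPKM in SSCs and 38.8 to 40.7 FPKM in iNSCs. For Cspg4 it was Nrep, at 10.7, 7.50 and 1.22 FPKM in SSCs and 0.88 to 1.02 FPKM in iNSCs.

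The wider astrocyte list held 30 genes, 5 of them among the 9. Of 22 tested, 14 rose and 4 fell, at a median log2 difference of 2.26 against -0.05 for all tested genes. Among all tested genes 25.7% rose and 27.6% fell, and these shares are also the background for the counts of the other lists below. The risers include factors of gliogenesis: Nfia went from 0.55, 0.22 and 0.14 FPKM in SSCs to 3.32, 2.99 and 2.57 FPKM in iNSCs (log2 3.55, adjusted p = 2.3e-04, and 4.24 without SSCs replicate 1), and Nfib and Sox9 rose by log2 differences of 2.81 and 2.87. The bicarbonate transporter Slc4a4 (log2 3.05) rose as well. Sox9 and Clu also stand on the Sertoli cell list, of which 9 of 11 tested genes rose.

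Other astrocyte genes were near the floor or fell. Gfap, the intermediate filament that defines astrocytes, had 17 counts in each group, at 0.05, 0.05 and 0.11 FPKM in iNSCs. Mlc1, a membrane protein of astrocyte junctions, fell from 6.19, 4.47 and 3.51 FPKM to 0.08, 0.07 and 0.18 FPKM (log2 -5.14, adjusted p = 2.8e-05). With 4, 4 and 10 counts in iNSCs, Mlc1 passed the expression filter through the SSC libraries alone, so that a difference was bound to be seen. Glul, the glutamine synthetase that works beside Slc1a2 in glutamate clearance, fell by 1.42 on the log2 scale, from 68.3 to 84.2 FPKM in SSCs to 22.5 to 24.2 FPKM in iNSCs. The fatty acid enzyme Acsbg1 fell by 1.41 and the aldolase Aldoc by 1.14, but Acsbg1 reached only -0.89 without SSCs replicate 1 and Aldoc -0.96 without iNSCs replicate 2. Counts of the connexin gene Gjb6 went from 29 to 0, a level at least 8.42-fold lower in iNSCs.

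The oligodendrocyte precursor list of 16 genes had 9 tested members, of which 5 rose and 3 fell (median 1.202). With library totals in place of TMM 3 rose. Pdgfra, a receptor of precursors and of fibroblasts, rose from 5.16, 4.19 and 5.27 FPKM to 14.85, 13.77 and 15.97 FPKM (log2 1.86, adjusted p = 2.0e-05). The proteoglycan gene Bcan and the factor Sox8 rose by log2 differences of 1.23 and 1.202, but Bcan reached only 0.89 without SSCs replicate 3 and Sox8 only 0.83 with that library alone. The factors that specify the lineage were at or near 0 in iNSCs: Sox10 went from 205 to 0 counts (at least 59.5-fold lower), Olig1 had 31 and 1, Olig2 had 7 and 0, and Nkx2-2 had 7 and 0. C1ql1, a secreted C1q-like protein, fell by 4.72 on the log2 scale, from 974 to 32 counts.

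In the oligodendrocyte and myelin list of 27 genes, 20 were tested, 7 rose and 5 fell (median 0.45), where 25.7% and 27.6% of all tested genes did. The largest rises were those of Mal, a proteolipid of myelin and of apical membranes in kidney epithelium, from 0.20, 0.22 and 0.19 FPKM to 134, 124 and 138 FPKM (log2 9.57, adjusted p = 3.9e-07), and of the carbonic anhydrase Car2, from 0.40, 0.21 and 0.79 FPKM to 234, 244 and 249.89 FPKM (log2 9.25, and 9.88 without SSCs replicate 3). The connexin gene Gjb1 rose by a log2 difference of 3.22, and Myrf, the regulator of myelin genes, by 1.75, from 6.04, 4.55 and 3.44 FPKM to 15.26, 11.52 and 12.66 FPKM. Cldn11, a tight junction gene of myelin and Sertoli cells, passed as well with groups that overlapped (log2 1.57, adjusted p = 0.0443), but only without SSCs replicate 1 did it pass again when a single library was left out, at adjusted p = 3.7e-04, with values of 0.0596 to 0.108 in the others.

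No rise was called for the structural myelin genes Mobp, Mog and Mag. Mobp, of compact myelin, fell from 199 to 0 counts, at least 57.8-fold. Sox10 and Mobp passed the expression filter through the SSC libraries alone, so that a difference was bound to be seen, as for Aqp4. Mog had 12 and 7 counts, Mag 45 and 20, and Opalin and Ermn 2 and 0 each. Bcas1, of early myelinating cells, fell by 2.04 on the log2 scale, Plekhb1 by 1.39 and the pteridine reductase Qdpr by 1.07, though Qdpr reached only -0.997 without SSCs replicate 1 and Plekhb1 only -0.69 with SSCs replicate 3 alone.

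**Figure D4:**
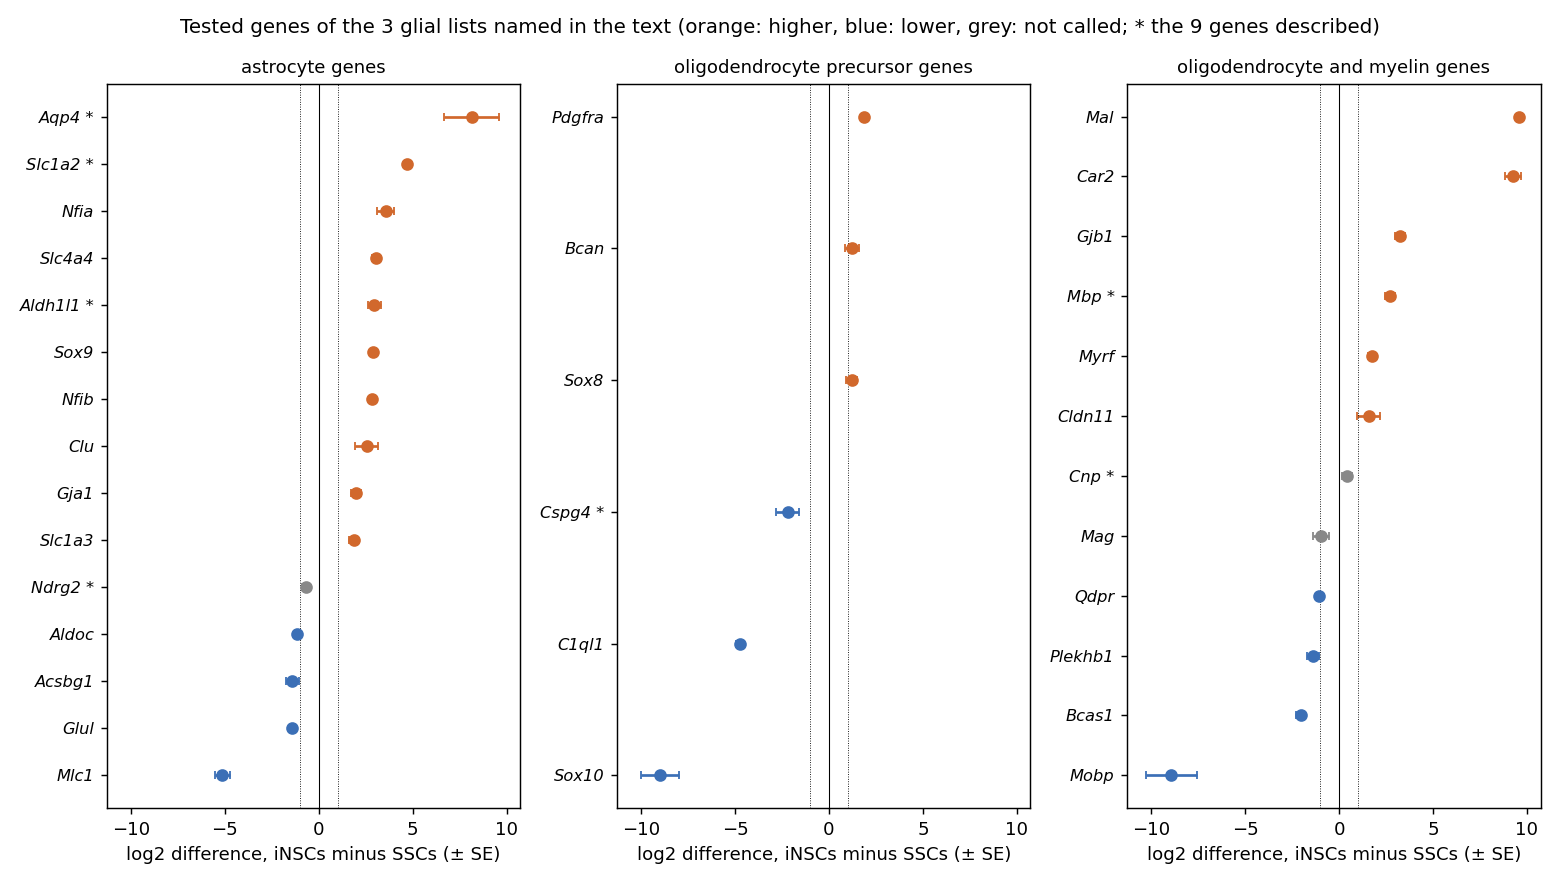
Log2 differences, iNSCs minus SSCs, with SEs, of the tested genes of the 3 glial lists that the text names, with all 6 libraries in the fit. Dotted lines mark the size threshold of 1. Aqp4, Slc1a2, Mal and Car2 stand at the upper end of their lists, with Aqp4 above Slc1a2, and Mlc1, Sox10 and Mobp are at the lower end. The values of Aqp4, Sox10 and Mobp, each with a group at 0 counts, are fitted values and no bounds.

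Markers of other cell types that share these genes were summed over their lists. Kidney tubule and collecting duct genes summed to 11.3, 16.6 and 33.7 FPKM in SSCs and to 232, 248 and 269 FPKM in iNSCs, with 10 of 12 tested genes higher, 2 lower and no member of the 15 at 0 in either group. Among them the kidney cadherin gene Cdh16 (log2 10.70) rose. It had 6, 8 and 5 counts in SSCs and passed the expression filter through the iNSC libraries alone. Lhx1, which is on the germ cell list too, fell by 7.19, and Slc12a3 fell from 373 to 2 counts. Of the members not tested, Aqp2 had 61 and 1 counts in SSCs and iNSCs, Slc12a1 4 and 1, and Aqp3 36 and 24. Epithelial genes summed to 179 to 299.83 FPKM in SSCs and to 3335 to 4013 FPKM in iNSCs, with 11 of 14 higher. Schwann cell genes, which share Sox10, summed to 79.1 to 122 FPKM in SSCs and to 39.2 to 49.8 FPKM in iNSCs, with 1 of 12 tested genes higher (Pmp22, whose adjusted p was 0.0567 without SSCs replicate 2) and 6 lower. Pericyte genes, which share Cspg4, had 3 of 10 tested genes higher and 5 lower, with the defining Pdgfrb not called (log2 -0.14, adjusted p = 0.850). The direction for Pdgfrb turned without SSCs replicate 1 (0.28), SSCs replicate 2 (0.11) or iNSCs replicate 2 (0.0021). With SSCs replicate 3 alone, a fit that holds no spread among SSC libraries, its log2 difference was 2.28. Of 5 tested macrophage genes, which microglia share, 2 rose, and of 12 tested neuronal genes 3 rose and 7 fell. The part of these cell types in the values of Aldh1l1, Aqp4, Mal, Car2 and Cspg4 was not tested.

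The families and partners of the members were measured too, over 59 tested genes beside the members. Of these 28 rose and 12 fell, where 25.7% and 27.6% of all tested genes did, and 12 of the risers are S100 genes or their receptor. Among the NDRG genes only Ndrg4 was called, from 66.5, 61.5 and 26.2 FPKM to 3.25, 2.95 and 3.73 FPKM (log2 -3.69, adjusted p = 6.1e-05). Ndrg1, a stress-induced relative, had a log2 difference of 0.42 and Ndrg3 of -0.66, neither called. With SSCs replicate 3 as the only SSC library the log2 difference of Ndrg3 was -1.12. By mean FPKM, Ndrg4 was the first of the family in SSCs, at 51.4, and Ndrg1 in iNSCs, at 8.31.

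Of the SLC1 carriers 6 were tested, and 3 rose and 0 fell, all of them glutamate transporters. Beside Slc1a2, Slc1a1, the transporter of neurons and of kidney and gut epithelium, rose from 0.33, 0.51 and 0.62 FPKM to 2.20, 2.93 and 3.08 FPKM (log2 2.74, adjusted p = 1.3e-04). Slc1a3, the other astrocyte transporter, rose by a log2 difference of 1.86 but reached only 0.43 to 0.55 FPKM. In iNSCs the level of Slc1a2 was above that of Slc1a3 and its range overlapped that of Slc1a1, while 3 carriers that were not called had higher levels: the glutamate transporter Slc1a6 at 8.53 to 15.01 FPKM, and the neutral amino acid carriers Slc1a4 at 9.59 to 10.87 and Slc1a5 at 10.32 to 13.39 FPKM. Slc1a6 passed without SSCs replicate 1 (log2 1.96) and Slc1a4 without SSCs replicate 3 (log2 1.01).

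Of 13 folate genes tested, 4 rose and 3 fell, which is near the shares of all tested genes (25.7% and 27.6%) and says little by itself. Aldh1l2, the mitochondrial relative of Aldh1l1, rose by a log2 difference of 2.07 and Mthfd2l, a mitochondrial folate dehydrogenase, by 3.14. The serine hydroxymethyltransferases fell: Shmt1 went from 62.2, 63.4 and 62.7 FPKM to 3.99, 4.10 and 4.45 FPKM (log2 -3.65, adjusted p = 1.1e-06) and Shmt2 fell by 1.70 on the log2 scale. Mthfd2 fell by 1.89.

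Aquaporins other than Aqp4 had few tested members. Aqp1, a water channel of kidney tubule and endothelium, rose from 0.43, 0.17 and 0.39 FPKM to 1.91, 1.44 and 4.66 FPKM (log2 3.27, and 2.61 without iNSCs replicate 3), and Aqp11 fell by 1.76 on the log2 scale. Aqp5, a channel of secretory epithelium, had the highest aquaporin level in both groups and was not called, at 20.06, 7.71 and 8.74 FPKM in SSCs and 14.09 to 15.79 FPKM in iNSCs, though it passed without SSCs replicate 1 (log2 1.11). Of the 9 genes of the dystrophin complex, which anchors Aqp4 at end feet and is present in many cells, 5 rose and 0 fell. Agrn, a matrix proteoglycan that binds dystroglycan, rose by a log2 difference of 4.27, Dmd by 1.65 and Sntb1 by 2.54 (3.75 without SSCs replicate 1).

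Connexins split, with 5 of 12 tested genes higher and 5 lower, against 25.7% and 27.6% of all tested genes. An epithelial connexin was among the risers, with Gjb1 at a log2 difference of 3.22. The astrocyte connexin gene Gja1 rose by 1.98, from 0.94, 1.59 and 0.75 FPKM to 3.80, 3.67 and 3.32 FPKM. Gja4, Gjb2 and Gjd3 fell by 3.84, 3.44 and 3.22.

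Several relatives of S100b reached higher levels than S100b itself. Of 15 tested genes of this list 12 rose and 2 fell. S100a14 rose from 0.09, 0.06 and 0.15 FPKM to 17.2, 19.4 and 22.0 FPKM (log2 7.76, adjusted p = 1.9e-06), S100a16 by a log2 difference of 4.19, and S100g, a calcium carrier of epithelia, from 0 to 108 counts (at least 41.3-fold higher). S100g and S100a14, both at or near 0 in SSCs, passed the expression filter through the iNSC libraries alone, so that a difference was bound to be seen. S100a11 stood at 1618 to 1711 FPKM in iNSCs, beside 0.27 to 0.66 FPKM for S100b. The fallers were S100z and S100pbp, which encodes a binding partner and no S100 protein. Ager, a receptor for S100 proteins, passed narrowly (log2 1.64, adjusted p = 0.0444), and its adjusted p was 0.0777 to 0.129 without any 1 library other than SSCs replicate 1.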

How the data were processed

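Raw read counts and FPKM values, both per gene and library, were deposited by the authors in one table. FPKM recomputed from the deposited counts, exonic lengths and column totals matched 100% of values within 0.0051 FPKM. HISAT2, DESeq2 and mm9 are named in the submitters' processing notes; no source used here gives the counting tool or its strand setting. The table's gene positions were set against GENCODE M21 on GRCm38: of 55141 identifiers found, 54821 had identical positions, so positions are given on GRCm38, and not on the mm9 of those notes.

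Counts of all 6 libraries were fitted with edgeR 4.0.16 under R 4.3.3 (TMM scaling, default filterByExpr settings of 10 for the minimum count and 15 for the total, two-sided quasi-likelihood test, Benjamini-Hochberg adjustment over all tested genes). Genes were called, and are said to have risen or fallen, where the adjusted p was under 0.05 and the log2 difference was 1 or more in size. Differences are iNSCs minus SSCs. Alternatives were DESeq2 1.42.0, limma 3.58.1 on log2(FPKM + 1) and log2(FPKM + 0.1), other scalings and filters, a replicate block and left-out libraries. A group at 0 counts was set to 3 counts over the group, and such bounds cover counting error only. Tested genes at or near 0 counts in 1 group passed the filter through the other group alone, so that a difference was bound to be seen. At this depth 3 counts in a library are 0.149 to 0.166 CPM. The fit was tested on simulated data in which far fewer genes changed than the 53.3% called here, equally many up and down. That test does not cover the scaling of libraries when most genes differ.

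The members and lists were chosen with earlier results of these data known, so no list was tested as a set. Besides the 9 members, the rule named the called genes with the largest differences in each list, up to 3 in each direction for glial, family and partner lists, given groups that did not overlap and a mean of 1 FPKM or more in the higher one. Lists of other cell types gave up to 3 genes each. The gene most like a member was the one with the highest correlation of log2 CPM among genes of 5 FPKM or more in the higher group. Other genes were named after their values were seen. Some genes of the lists are counted but not reported here by name.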

Additional observations from a re-analysis of the deposited data

How the results depend on the processing

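The rises of Slc1a2, Aldh1l1 and Mbp kept their direction and their call under every alternative run. Aqp4 kept its call except with limma on log2(FPKM + 1), where its log2 difference was 0.33, and it was not tested at a minimum of 1 FPKM in 3 libraries. The number of members lower in iNSCs was 1 with all libraries, 2 with no filter and with DESeq2 (Gjc3 added), 0 with a minimum of 1 FPKM in 3 libraries or limma on log2(FPKM + 1), and 0 to 1 when a single library was left out. Genes higher numbered 2746 with limma on log2(FPKM + 1), against 4470. Oligodendrocyte precursor genes higher numbered 5, but 3 with library totals, 3 with the 1 FPKM minimum and 1 with limma on log2(FPKM + 1), and those lower 1 with the 1 FPKM minimum, against 3. Oligodendrocyte and myelin genes lower numbered 3 with the 1 FPKM minimum and 3 with limma on log2(FPKM + 1), against 5. Astrocyte genes lower numbered 7 with SSCs replicate 3 as the only SSC library, an alternative chosen after the data were seen, against 4. A stricter minimum tests fewer genes, and the pseudocount of 1 shrinks differences of low genes; other causes were not tested. Library totals in place of TMM moved the median of all genes by -0.25.

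With the replicate number as a block, 4 members rose and 1 fell, as without it, and the Cspg4 log2 difference was -1.89 (adjusted p = 0.0485). Correlations of the deviations of same-numbered libraries were 0.0907, 0.0496 and -0.0150, so the numbers were not taken to pair samples. S100b and Gjc3 were below the filter and have no value under most alternatives. Depth limits both, and Aqp4 and Gfap as well.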
